A study of Mus musculus with 15 samples.

Results

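The genes described here encode ligands and receptors of the VEGF, angiopoietin and apelin systems, with the endothelial response gene Esm1. They were all probes of the bead array whose gene symbol was Vegfa, Vegfc, Angpt2, Apln, Flt1, Kdr, Flt4, Tek, Aplnr or Esm1, which gave 10 genes read by 17 probes, out of 19057 genes with a named probe. Their signals were followed in mouse embryo heads of 4 genotypes, collected at embryonic day 9.5 with 18 to 20 somites, from embryos of mixed C57Bl/6, 129 and BALB/c descent. Every embryo carried a floxed allele of Twist1, the gene of a transcription factor of the cranial mesoderm. Control samples (Twist1flox/+; Mesp1+/+, n = 3) had a wild-type allele beside it, and Het samples (Twist1flox/del; Mesp1+/+, n = 4) had a deleted allele in all cells. CM-Het samples (Twist1flox/+; Mesp1Cre/+, n = 4) and CM-CKO samples (Twist1flox/del; Mesp1Cre/+, n = 4) had Cre placed at the Mesp1 locus, so that recombination is driven in early mesoderm and what descends from it, which includes endothelium, and Mesp1 keeps a single intact copy. Thus CM-CKO cells outside the Cre lineage had 1 working Twist1 allele, as in Het. The study asked which genes depend on TWIST1 in the cranial mesoderm. The labels do not state whether each array held 1 head, and the p-values measure the spread between these samples.

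As background, VEGF ligands act on receptor tyrosine kinases of endothelial cells to drive the growth, migration and permeability of vessels. Angiopoietins act on the receptor kinase Tek, also called Tie2, whose activity keeps endothelium stable and whose ligand Angpt2 can oppose it in a context-dependent way. Apelin acts on Aplnr, a G protein-coupled receptor of venous and sprouting endothelium and of early mesoderm. Vessel growth in the embryonic head depends on VEGF made by the surrounding tissue, with the receptors confined largely to endothelial cells.

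The promoters of Vegfa and Esm1, whose signals rose in CM-CKO, and of Tek, whose signal fell against Het and CM-Het, are shown so that genes of opposite direction can be compared. Each is the 250 bases before the RefSeq gene start in build GRCm38.p6, read 5′ to 3′ on the gene's strand. Capitals mark the hypoxia response cores ACGTG and GCGTG and the ETS factor core GGAA on either strand. The windows lie at chr17:46032378-46032627 (minus strand, the most upstream of 2 windows of Vegfa), chr13:113209409-113209658 (plus strand, Esm1) and chr4:94739039-94739288 (plus strand, Tek).
Vegfa: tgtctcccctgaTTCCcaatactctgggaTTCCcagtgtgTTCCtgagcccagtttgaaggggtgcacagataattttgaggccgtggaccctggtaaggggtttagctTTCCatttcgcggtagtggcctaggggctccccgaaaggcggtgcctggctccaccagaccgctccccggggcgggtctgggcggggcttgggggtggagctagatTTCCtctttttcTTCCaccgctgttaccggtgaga
Esm1: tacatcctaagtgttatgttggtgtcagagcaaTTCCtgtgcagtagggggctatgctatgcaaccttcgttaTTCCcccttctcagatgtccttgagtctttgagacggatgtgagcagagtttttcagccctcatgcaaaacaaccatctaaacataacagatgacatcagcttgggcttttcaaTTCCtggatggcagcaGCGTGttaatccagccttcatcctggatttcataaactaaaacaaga
Tek: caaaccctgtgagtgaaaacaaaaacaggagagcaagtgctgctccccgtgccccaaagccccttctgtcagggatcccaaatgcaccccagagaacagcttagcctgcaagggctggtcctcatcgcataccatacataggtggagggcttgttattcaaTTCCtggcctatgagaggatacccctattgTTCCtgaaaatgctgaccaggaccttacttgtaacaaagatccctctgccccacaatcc
The Vegfa window held 6 ETS cores and 0 hypoxia cores, the Esm1 window 3 ETS cores and 1 hypoxia core, and the Tek window 2 ETS cores and 0 hypoxia cores. Such letters are common: of 32851 windows of this length, 93.45% held an ETS core and 38.6% held either hypoxia core. The hexamers CATATG and CATCTG, E-boxes that TWIST1 can bind, were searched on both strands as well. CATCTG occurred in 2 copies in the Esm1 window and 1 copy in that of Kdr, and in 0 copies in those of Vegfa, Vegfc, Apln, Flt1, Flt4 and Tek; CATATG occurred in none of these 8. Of all windows, 17.33% held either hexamer. The table listed 8 of the 10 genes, without Angpt2 and Aplnr. No ETS core overlapped a hypoxia core in the windows shown, and a match describes letters only.

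A signal was detected where it exceeded 95% of the negative control beads (detection p under 0.05). A probe was kept for testing where it was detected on at least 3 arrays, and the brightest kept probe stood for its gene. Of the 10 genes, 9 were kept, and Apln was not. Levels are background-corrected, quantile-normalized log2 intensities, on which the detection threshold lay between 4.71 and 4.76 and the highest signal at 14.05. Levels of different probes are not compared, since probes differ in brightness, and a difference close to the threshold understates the fold. As a head holds many tissues, fewer cells of a type and less RNA per cell cannot be told apart.

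The 15 arrays correlated at r = 0.964 to 0.994, and the CM-CKO samples lay apart from all others on the first principal component, with scores of 9.58 to 45.2 against −11.1 to −7.57. The arrays came from 3 slides. Slide 1 held CM-CKO 1 to 3 and Het 1, slide 2 held no CM-CKO sample, and slide 3 held CM-CKO 4 with Control 2 and 3, Het 4, and CM-Het 3 and 4. Genotype is therefore partly confounded with slide, and results are given below with slide as a block and within slide 3. On the second principal component the arrays of slide 1, Het 1 included, scored −20.4 to −5.90 and all others −3.19 to 19.6. The Twist1 level was 9.87 to 9.95 in Control, 9.76 to 10.04 in CM-Het, 8.62 to 9.32 in Het and 8.94 to 9.34 in CM-CKO samples. It was lower in CM-CKO than in Control by 0.76 ± 0.15 (SE, limma adjusted p = 0.0063) and than in CM-Het by 0.75 ± 0.14 (adjusted p = 0.0034). The contrasts that differ by Cre alone did not pass, at 0.19 for CM-CKO against Het (adjusted p = 0.425) and −0.01 for CM-Het against Control (adjusted p = 1.00). The labels do not place the Twist1 probe relative to the deleted part. Of 6 head tissue genes that were kept, among them Otx2, Sox2 and Prrx1, 0 were called in CM-CKO against Control and against CM-Het. Their differences ran from −0.38 to 0.46 and from −0.46 to 0.47. Against Het they ran from −0.64 to 0.32, and only Prrx1 was called (−0.45, adjusted p = 0.0483).

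In CM-CKO samples the ligands Vegfa and Angpt2 and the response gene Esm1 were higher and the receptors Aplnr and Tek lower than in most other samples, while Vegfc, Flt1, Kdr and Flt4 did not pass a test in any comparison. Of the 9 tested genes, 3 rose (Vegfa, Angpt2 and Esm1) and 1 fell (Aplnr) in CM-CKO against Control, beside 7.23% of all 11625 genes called in that comparison, 3.96% higher and 3.28% lower. Against Het, 2 rose (Vegfa and Esm1) and 2 fell (Tek and Aplnr), beside 8.47% of all genes, 4.15% higher and 4.33% lower. Against CM-Het, 3 rose (Vegfa, Angpt2 and Esm1) and 2 fell (Tek and Aplnr), beside 9.91%, with 5.29% higher and 4.62% lower. These comparisons share the CM-CKO samples. The median differences of the 9 genes were −0.08, −0.07 and −0.24, and those of all genes −0.03, −0.04 and −0.03. Groups did not overlap for 6 of the 9 genes against Control, 3 against Het and 5 against CM-Het, beside 20.1%, 11.7% and 17.5% of all genes.

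Vegfa, the main VEGF of embryonic vessel growth, was higher in all 4 CM-CKO samples than in any other sample. Its brightest probe read 8.84, 8.83 and 8.92 in Control 1 to 3, 9.22, 8.89, 8.74 and 8.83 in Het 1 to 4, and 8.83, 9.11, 8.92 and 8.62 in CM-Het 1 to 4. In CM-CKO 1 to 4 it read 10.05, 10.19, 10.19 and 9.38, so CM-CKO 4 was the lowest of its group and still above the highest other sample. In the limma fit, CM-CKO exceeded Control by 1.09 ± 0.18 (SE), or 2.13-fold (adjusted p = 0.00202). Vegfa was also higher in CM-CKO than in Het, by 1.03 ± 0.17 (adjusted p = 0.00152), and than in CM-Het, by 1.08 ± 0.17 (adjusted p = 0.000966). The 3 other groups had means of 8.86, 8.92 and 8.87 and overlapped.

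The dimmer detected probe of Vegfa showed the same separation. It read 7.19 to 7.30 in Control, 7.12 to 7.30 in Het, 7.01 to 7.41 in CM-Het and 7.79 to 8.06 in CM-CKO samples. In a fit of every kept probe it was higher in CM-CKO than in Control by 0.72 ± 0.11 (adjusted p = 0.00141). The size of the rise thus depended on the probe, and the direction did not. The third Vegfa probe was detected on 0 arrays.

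The Vegfa difference was smaller on slide 3 than over all slides. With slide as a block the value against Control was 0.66 (adjusted p = 0.0146), and within slide 3, where CM-CKO 4 is the only sample of its group, it was 0.50. The differences from Het and CM-Het within slide 3 were 0.54 and 0.60. On slide 1, CM-CKO 1 to 3 exceeded Het 1 by 0.92. Slide 3 and CM-CKO 4 cannot be told apart in these values. Without the 4 arrays of slide 1, an alternative added after the data were seen, CM-CKO 4 is again the only sample of its group. The differences from Control, CM-Het and Het were then 0.51, 0.50 and 0.56, which 1 sample cannot test.

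Angpt2, the angiopoietin that activated endothelium releases, was lowest in Control and highest in CM-CKO. It read 5.47, 5.44 and 5.70 in Control 1 to 3, 6.16, 6.20, 5.92 and 6.10 in Het 1 to 4, 5.75, 5.46, 5.88 and 5.73 in CM-Het 1 to 4, and 6.44, 6.52, 6.75 and 6.18 in CM-CKO 1 to 4. CM-CKO did not overlap Control or CM-Het, whereas CM-CKO 4 fell among the Het samples. The rise against Control was 0.94 ± 0.13, or 1.91-fold (adjusted p = 0.000686), and that against CM-Het was 0.77 ± 0.12 (adjusted p = 0.00139). Without background correction these values were 0.40 (adjusted p = 0.00182) and 0.34 (adjusted p = 0.00297), so the calls held at a smaller size. The difference from Het was 0.38 ± 0.12 and did not pass (adjusted p = 0.072, 95% interval 0.12 to 0.64). Het and Control did not overlap either, at a difference of 0.56 ± 0.13 (unadjusted p = 0.000761, adjusted p = 0.747).

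The order of the Angpt2 means was therefore CM-CKO at 6.47, Het at 6.09, CM-Het at 5.70 and Control at 5.53, in which CM-Het and Control overlapped and so did CM-CKO and Het. With slide as a block the values were 0.75 against Control (adjusted p = 0.0122) and 0.57 against CM-Het (adjusted p = 0.0333). Within slide 3 they were 0.62 and 0.38, and 0.08 against Het. Without slide 1, where only the lowest CM-CKO sample remains, the difference from CM-Het was 0.48, which 1 sample cannot test. The second Angpt2 probe was detected on 1 array.

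Vegfc, the ligand that drives lymphatic growth through Flt4, differed little between groups. It read 8.97 to 9.14 in Control, 8.90 to 9.26 in Het, 9.14 to 9.33 in CM-Het and 8.69 to 9.21 in CM-CKO samples. All groups overlapped except CM-Het and Control, which met near 9.14. CM-CKO against Control was −0.08 ± 0.12 (adjusted p = 0.739), with a 95% interval of −0.34 to 0.18. Without slide 1, where only the lowest CM-CKO sample (8.69) remains, the difference from CM-Het was −0.54, which 1 sample cannot test. Apln, the apelin ligand, has 1 probe, which was detected on 0 arrays with deposited signals of 88.1 to 112, so no level of it can be compared.

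**Figure D1:**
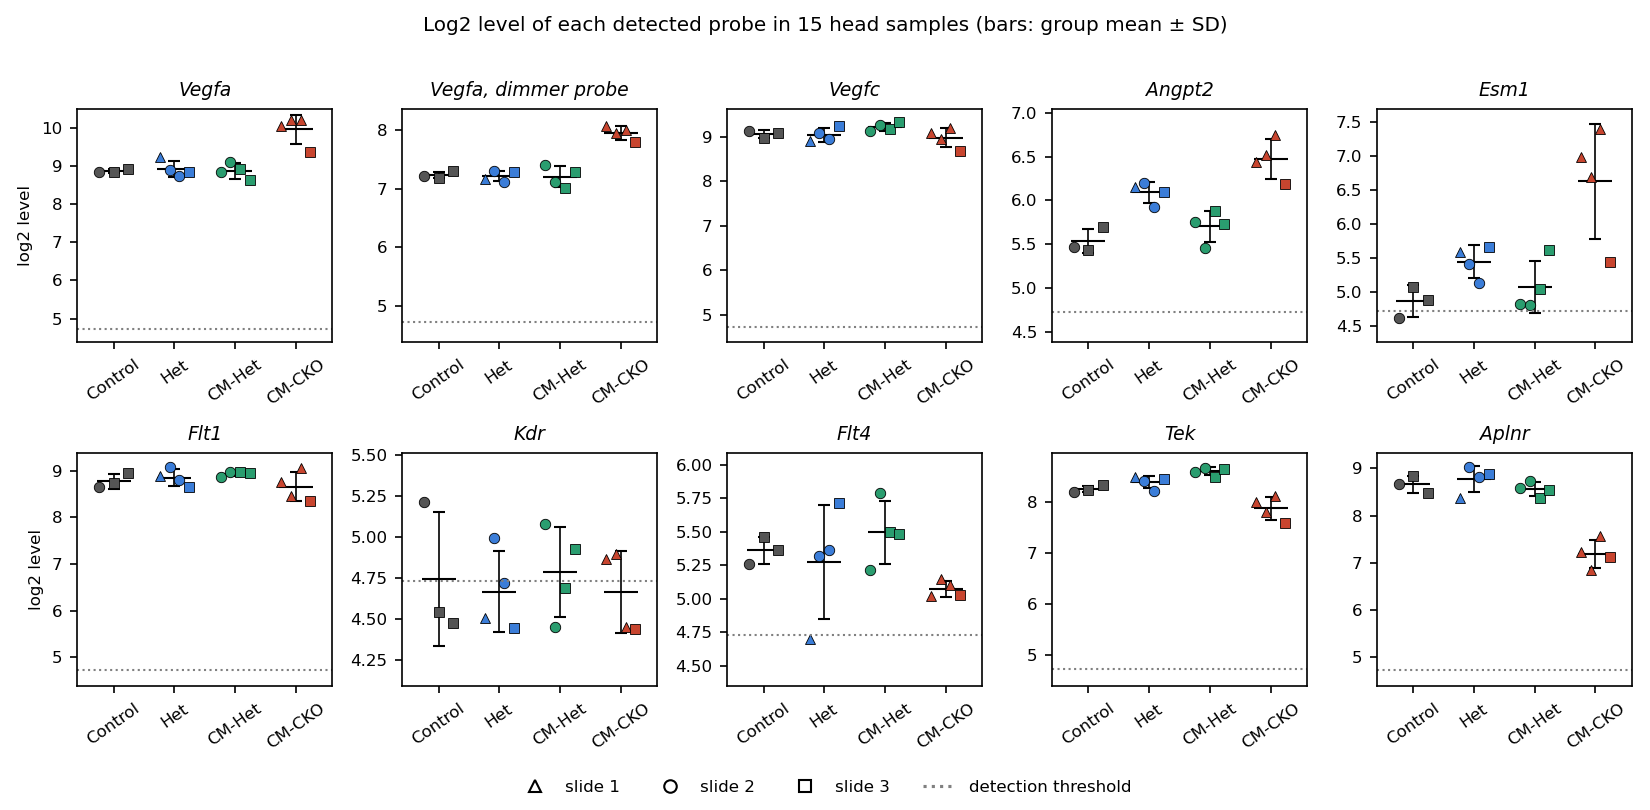
Log2 level (y axis) of each kept probe in every sample by genotype (x axis); marker shape gives the slide, bars the group mean ± SD, and the dotted line the detection threshold. The CM-CKO samples lie above all others for both Vegfa probes and below all others for Aplnr and Tek, while CM-CKO 4 (square) lies near the other groups for Esm1.

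Aplnr, the receptor of apelin, showed the largest fall of the 9 genes in each comparison of CM-CKO. It read 8.66, 8.84 and 8.48 in Control 1 to 3, 8.38, 9.03, 8.82 and 8.88 in Het 1 to 4, and 8.59, 8.73, 8.38 and 8.55 in CM-Het 1 to 4. In CM-CKO 1 to 4 it read 7.23, 6.84, 7.56 and 7.12, and the highest of these lay below the lowest sample of every other group. CM-CKO held 35.9% of the Control level (−1.48 ± 0.17, adjusted p = 8.19e-05). The level was 33.1% of that in Het (−1.59 ± 0.16, adjusted p = 1.51e-05) and 38.5% of that in CM-Het (−1.38 ± 0.16, adjusted p = 8.78e-05).

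The Aplnr fall did not rest on one slide. Within slide 3 the differences from Control, Het and CM-Het were −1.55, −1.77 and −1.35, and on slide 1 CM-CKO 1 to 3 lay 1.17 below Het 1 on the log2 scale (−1.17). With slide as a block the value against Control was −1.30 (adjusted p = 0.00325). With the mean of the erythroid markers as a covariate it was −1.19 and no longer passed (adjusted p = 0.0577), and the values against Het and CM-Het were −1.28 (adjusted p = 0.0807) and −1.06 (adjusted p = 0.0992). That erythroid mean was 8.21 to 10.88 in CM-CKO samples and at most 7.42 in any other sample. The covariate thus nearly follows genotype, and a fit with it cannot tell red cell content and genotype apart. The Aplnr means of Het, Control and CM-Het were 8.78, 8.66 and 8.56, and these groups overlapped.

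Tek, the angiopoietin receptor, was also lowest in CM-CKO, by a smaller margin. It read 8.20, 8.23 and 8.33 in Control 1 to 3, 8.49, 8.41, 8.22 and 8.44 in Het 1 to 4, 8.58, 8.66, 8.49 and 8.65 in CM-Het 1 to 4, and 8.01, 7.80, 8.11 and 7.59 in CM-CKO 1 to 4. All 4 CM-CKO values were below every other sample. Tek fell by 0.52 ± 0.11 against Het (adjusted p = 0.00838) and by 0.72 ± 0.11, to 60.6%, against CM-Het (adjusted p = 0.000837). The call against Het did not hold with only those groups in the fit (adjusted p = 0.0693). The difference from Control, −0.38 ± 0.12, did not pass (adjusted p = 0.0628), and its 95% interval ran from −0.63 to −0.13.

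The Tek levels ran from CM-Het at 8.60 through Het at 8.39 and Control at 8.26 to CM-CKO at 7.88. CM-Het lay above Control without overlap, at a difference of 0.34 ± 0.12 (unadjusted p = 0.0100, adjusted p = 1.00), while Het overlapped Control, and its highest sample lay just below the lowest of CM-Het. With slide as a block the difference of CM-CKO from Control was −0.57 and passed (adjusted p = 0.0179). Within slide 3 the differences were −0.69, −0.85 and −0.98 from Control, Het and CM-Het. It also passed against Control without CM-CKO 3 (−0.46, adjusted p = 0.0242), and without background correction (−0.28, adjusted p = 0.0435). With the erythroid mean as a covariate the Tek differences from Control, Het and CM-Het were 0.05, −0.05 and −0.26, so that neither the call against Het (adjusted p = 0.924) nor that against CM-Het (adjusted p = 0.454) held. As for Aplnr, that covariate nearly follows genotype, so these values cannot separate red cell content from genotype.

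Flt1, a VEGF receptor that also acts as a trap for VEGF, did not pass in any comparison of the fit over all arrays. It read 8.64 to 8.95 in Control, 8.64 to 9.08 in Het, 8.86 to 8.97 in CM-Het and 8.36 to 9.05 in CM-CKO samples, and all groups overlapped. CM-CKO against Control was −0.12 ± 0.15 (95% interval −0.43 to 0.20, adjusted p = 0.693). Against CM-Het the difference of −0.28 ± 0.14 passed without CM-CKO 3 (−0.41, adjusted p = 0.0467). Without slide 1, where only the lowest CM-CKO sample (8.36) remains, the difference from CM-Het was −0.58, which 1 sample cannot test. The second Flt1 probe was detected on 1 array.

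Flt4, the receptor of Vegfc, was close to the detection threshold. It read 5.26 to 5.46 in Control, 4.70 to 5.72 in Het, 5.22 to 5.79 in CM-Het and 5.02 to 5.15 in CM-CKO samples. The CM-CKO samples lay below those of Control and CM-Het without overlap, but the differences of −0.29 ± 0.18 (adjusted p = 0.366) and −0.42 ± 0.17 (adjusted p = 0.128) did not pass. The difference from CM-Het passed without Het 1 (adjusted p = 0.0376), the array on which the probe was not detected. The 2 other Flt4 probes were detected on 0 arrays, and 2 of the 3, the one tested included, held another value in the authors' value table. Which table has the right probe is not known. With the value table the Flt4 differences from Control, Het and CM-Het were 0.02, 0.04 and 0.03, so the direction is not settled.

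Kdr, the main signalling receptor of VEGF in endothelium, could hardly be read. Its brightest probe was detected on 6 of the 15 arrays, 1 each in Control and Het and 2 each in CM-Het and CM-CKO. Levels were 4.48 to 5.21 in Control, 4.45 to 4.99 in Het, 4.45 to 5.08 in CM-Het and 4.44 to 4.89 in CM-CKO samples, which overlapped. CM-CKO against Control was −0.08 ± 0.20 (95% interval −0.51 to 0.34), and a fold cannot be read reliably from signals so close to the threshold. The second Kdr probe was detected on 0 arrays.

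Esm1, a secreted proteoglycan that endothelial tip cells make in response to VEGF, had the largest rise and the widest spread. It read 4.62, 5.08 and 4.89 in Control 1 to 3, 5.58, 5.41, 5.13 and 5.67 in Het 1 to 4, 4.82, 4.82, 5.04 and 5.62 in CM-Het 1 to 4, and 6.99, 6.68, 7.39 and 5.44 in CM-CKO 1 to 4. CM-CKO 1 to 3 were above all other samples, and CM-CKO 4 lay within the range of Het and CM-Het. The rise was 1.76 ± 0.33, or 3.39-fold, against Control (adjusted p = 0.0052), 1.18 ± 0.31 against Het (adjusted p = 0.0274) and 1.55 ± 0.31 against CM-Het (adjusted p = 0.00577). Without background correction the values were 0.72, 0.55 and 0.66 (adjusted p = 0.012, 0.0272 and 0.0103), so the size of the fold depends on that step.

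The Esm1 calls depended on the arrays of slide 1. Fitted with only the 2 groups compared, those against Control (adjusted p = 0.0576) and Het (adjusted p = 0.0983) did not hold. With slide as a block the values were 1.08 (adjusted p = 0.0699), 0.65 (adjusted p = 0.182) and 0.82 (adjusted p = 0.137), in the same order, and no call held. Within slide 3, CM-CKO 4 lay 0.45 above Control and 0.11 above CM-Het, and at −0.22 against Het the direction turned. On slide 1, CM-CKO 1 to 3 exceeded Het 1 by 1.44. Genotype and slide cannot be fully told apart for this gene. Control 1 lay below the detection threshold.

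**Figure D2:**
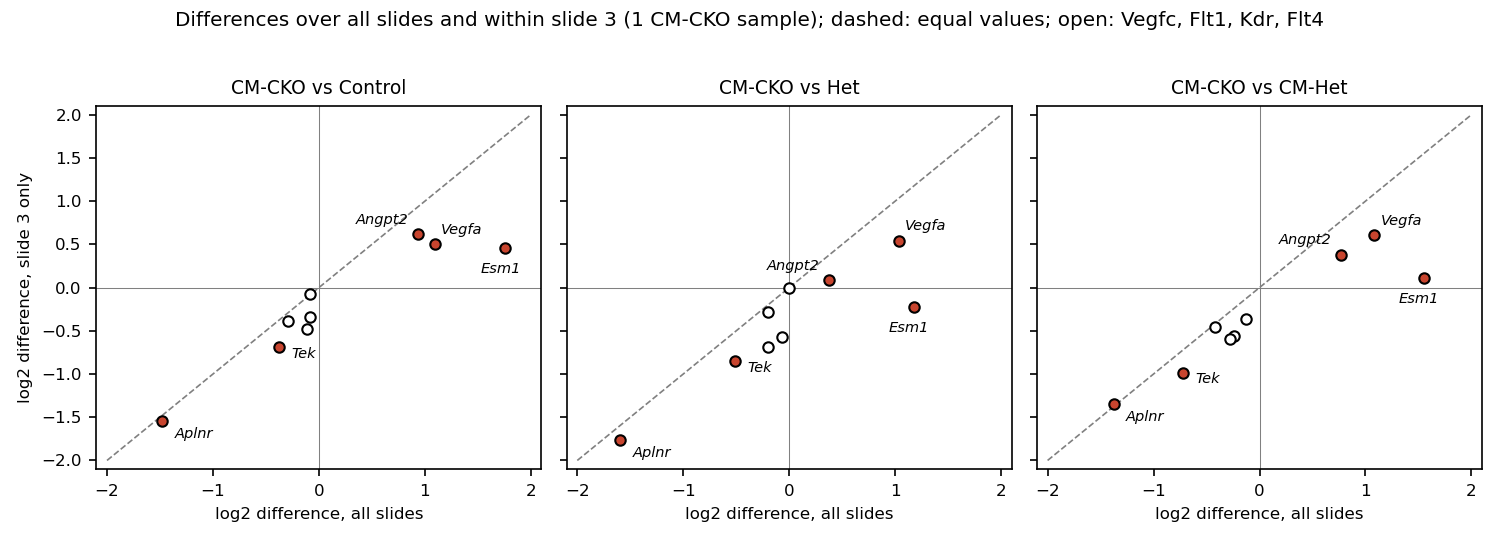
Log2 difference of CM-CKO from each other group within slide 3 (y axis, 1 CM-CKO sample) against the difference over all slides (x axis) for the 9 tested genes. Aplnr lies near the line of equal values and Tek below it, Vegfa and Angpt2 keep a smaller positive difference, down to 0.08 for Angpt2 against Het, and Esm1 falls from 1.18 to −0.22 against Het.

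The comparisons without CM-CKO asked what loss of 1 Twist1 allele, or Cre with 1 allele, does alone. In Het against Control, 0 of the 9 genes and 0% of all genes passed, with 636 genes (5.47%) at an unadjusted p under 0.05, Angpt2 among them. Twist1 itself read 51.6% of Control in Het (−0.95 ± 0.15), without overlap, and did not pass (limma adjusted p = 0.11). A lack of calls in this comparison therefore does not show a lack of effect. Groups did not overlap for 2 of the 9 genes, Angpt2 and Esm1, beside 6% of all genes. In CM-Het against Control, 0 of the 9 and 0% of all genes passed, with 413 genes (3.55%) at an unadjusted p under 0.05, Tek among them. Vegfc and Tek did not overlap between these groups, beside 6.98% of all genes. Vegfa differed by 0.06 ± 0.18 in the first and 0.01 ± 0.18 in the second, with 95% intervals of −0.32 to 0.44 and −0.37 to 0.39. For Aplnr the values were 0.11 ± 0.17 and −0.10 ± 0.17. Esm1 lay 0.58 ± 0.33 higher in Het than in Control, without overlap, and this did not pass (adjusted p = 0.924).

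An interaction asked whether the effect of Mesp1-Cre differed between the floxed over deleted and the floxed over wild-type backgrounds, as CM-CKO minus Het less CM-Het minus Control. It passed for 2 of the 9 genes, both negative, beside 1.07% of all genes, 0.671% positive and 0.396% negative. Aplnr had a value of −1.49 ± 0.23 (adjusted p = 0.00454), since Cre went with −1.59 on the first background and −0.10 on the second. For Tek the value was −0.86 ± 0.16 (adjusted p = 0.017), from −0.52 and 0.34, which have opposite signs. It did not pass without Control 1 (adjusted p = 0.0533). With the erythroid mean as a covariate neither value passed, at −1.15 for Aplnr (adjusted p = 0.296) and −0.36 for Tek (adjusted p = 0.551). The limit on that covariate given above holds here too. The Vegfa value of 1.02 ± 0.25 did not pass (adjusted p = 0.0566), but did with slide as a block (0.78, adjusted p = 0.0353), and its dimmer probe passed in the fit of every probe (0.76, adjusted p = 0.0261). Angpt2 at 0.21 ± 0.18 and Esm1 at 0.97 ± 0.45 did not pass.

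**Figure D3:**
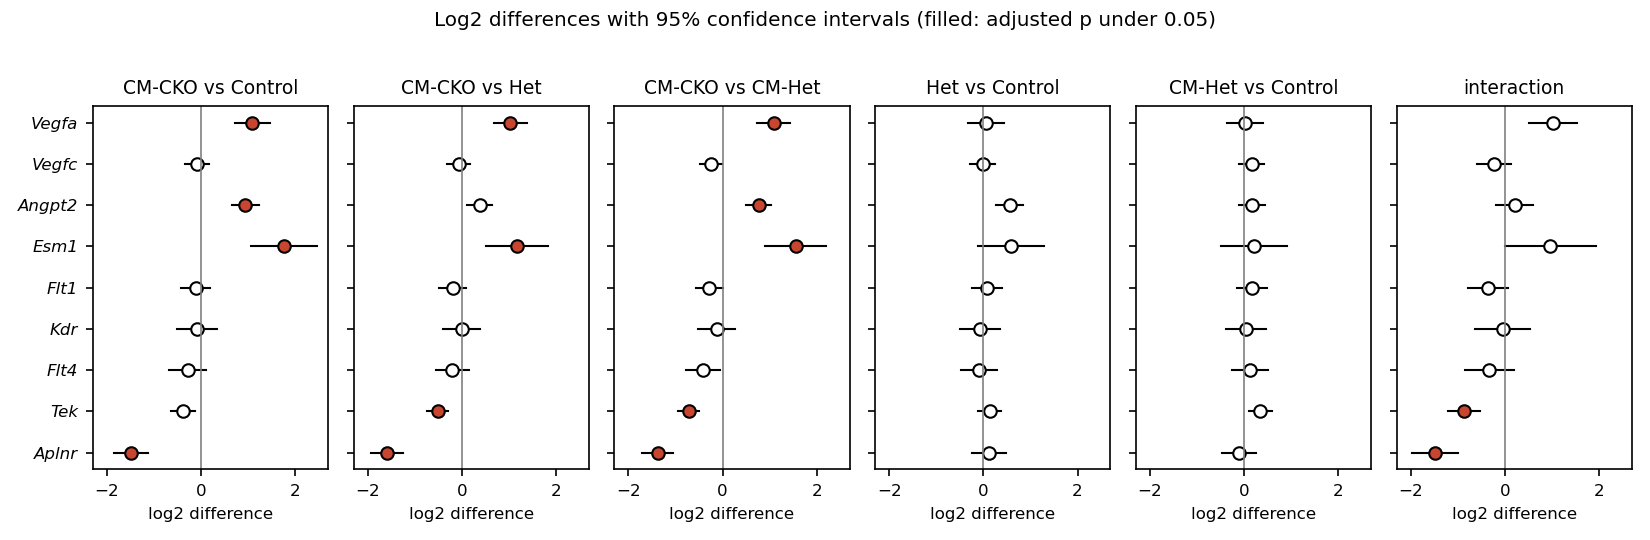
Log2 difference (x axis) with 95% confidence interval for each of the 9 tested genes (rows) in the 5 comparisons and the interaction; filled points passed at an adjusted p under 0.05. Vegfa, Angpt2 and Esm1 lie to the right and Tek and Aplnr to the left in the 3 comparisons of CM-CKO, and no point is filled in Het or CM-Het against Control.

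Other genes of these systems mostly did not pass. Of 23 listed, 16 were kept, and 2 rose and 1 fell in CM-CKO against Control. Vegfd, a ligand of Flt4, had means of 6.11 in Control, 6.11 in Het and 5.93 in CM-Het, where the lowest sample read 5.85, and CM-CKO samples read 5.05 to 5.51. The CM-CKO samples lay below all others, and Vegfd fell by 0.79 ± 0.14 against Control (adjusted p = 0.00412), by 0.79 against Het (adjusted p = 0.00209) and by 0.62 against CM-Het (adjusted p = 0.0099). Among the ligands tested, it was the only one that fell past the threshold. Pdgfb, the growth factor by which endothelium recruits pericytes, rose by 0.53 ± 0.15 (adjusted p = 0.0437), and by 0.64 against CM-Het (adjusted p = 0.00966), while its difference from Het, 0.23, did not pass (adjusted p = 0.333). Foxo3, a transcription factor of the FOXO family, rose by 1.18 ± 0.33 (adjusted p = 0.0401), with CM-CKO samples at 6.07 to 8.03 and Control at 5.53 to 5.75. It rose by 1.36 against CM-Het (adjusted p = 0.0111) and did not pass against Het (0.98, adjusted p = 0.0567). Foxo1, which activates Angpt2, differed by −0.04 ± 0.11 from Control (adjusted p = 0.868).

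Among the ligands and receptors of the list that did not pass against Control, Vegfb differed by −0.24 ± 0.13 and Pgf by 0.07 ± 0.15. Angpt1, the activating ligand of Tek, differed by −0.04 ± 0.15 (95% interval −0.35 to 0.27). The Tek partners Tie1 and Ptprb, the latter a phosphatase, differed by −0.21 ± 0.21 and −0.48 ± 0.26. The VEGF co-receptors Nrp1 and Nrp2 differed by −0.22 ± 0.16 and 0.68 ± 0.25 (adjusted p = 0.117). The Nrp1 probe tested holds another value in the authors' value table, and which of the deposited tables has the right probe is not known. The VEGF response genes Rcan1, Egr3, Unc5b, Cxcr4 and Adamts1 lay between −0.24 and 0.20. Neither Angpt4 nor Dll4 was kept, and Apela, the second ligand of Aplnr, is a gene without a named probe in the table used.

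Markers of endothelium, where most of these receptors are made, also moved with genotype. Of 16 kept endothelial markers, 5 fell and 0 rose in CM-CKO against Control, with a median of −0.29 and a range of −0.81 to 0.44. Those that fell were Emcn, Cldn5, Ramp2, Icam2 and Cd34. Against Het, 8 fell and 0 rose (median −0.38), and against CM-Het 8 fell and Robo4 rose (median −0.42), where Tek differed by −0.52 and −0.72. Summed normalized signal of the 16 was 8057 to 8573 in Control, 8438 to 8780 in Het, 8562 to 9489 in CM-Het and 6389 to 7347 in CM-CKO samples. The defining markers Erg and Ecscr were detected on 0 arrays. Against Control, Aplnr at −1.48 lay below the lowest of the 16 markers, Tek at −0.38 lay within their range, and Vegfa, Angpt2 and Esm1 lay above their highest. Whether the falls of Tek and Aplnr follow the number of endothelial cells was not tested.

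Red cell markers and genes that low oxygen induces moved as well. All 11 kept erythroid markers rose against Control, with a median of 2.49, and their summed signal was 3798 to 4800 in Control, 3727 to 4541 in Het, 3821 to 4363 in CM-Het and 7971 to 34347 in CM-CKO samples. Of 15 kept low-oxygen genes, which do not include Vegfa or Angpt2, 13 rose against Control with a median of 0.84, among them Ankrd37, Pdk1, Adm and Ddit4. Their summed signal was 8640 to 9664 in Control, 8597 to 10314 in Het, 9526 to 10992 in CM-Het and 16694 to 17946 in CM-CKO samples. The mean log2 level of these 15 was 8.29, 8.49, 8.35 and 8.32 in CM-CKO 1 to 4. The part of the low-oxygen genes in the Vegfa, Angpt2 and Esm1 values was not tested. With the erythroid mean as a covariate, Vegfa against Control was 1.65 (adjusted p = 0.00751), Angpt2 1.37 (adjusted p = 0.00219) and Esm1 3.19 (adjusted p = 0.000618). Since that mean nearly follows genotype, these values do not show what part red cells have in them.

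Heart and macrophage lists, of 7 genes each, gave 0 calls in any comparison among 3 and 2 kept genes. Both kept macrophage genes and the heart gene Nkx2-5 lay near the detection threshold, so their lack of calls says little. Of 5 mural cell genes, 0 were called against Control, while against both Het and CM-Het Cspg4 rose (by 1.47 against CM-Het) and Pdgfrb fell (−0.88 and −0.67). Of 3 kept lymphatic markers, Reln rose by 1.65 ± 0.29 (adjusted p = 0.00341), whereas Prox1 and Pdpn differed by −0.08 and −0.06, and Lyve1 was detected on 0 arrays.

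**Figure D4:**
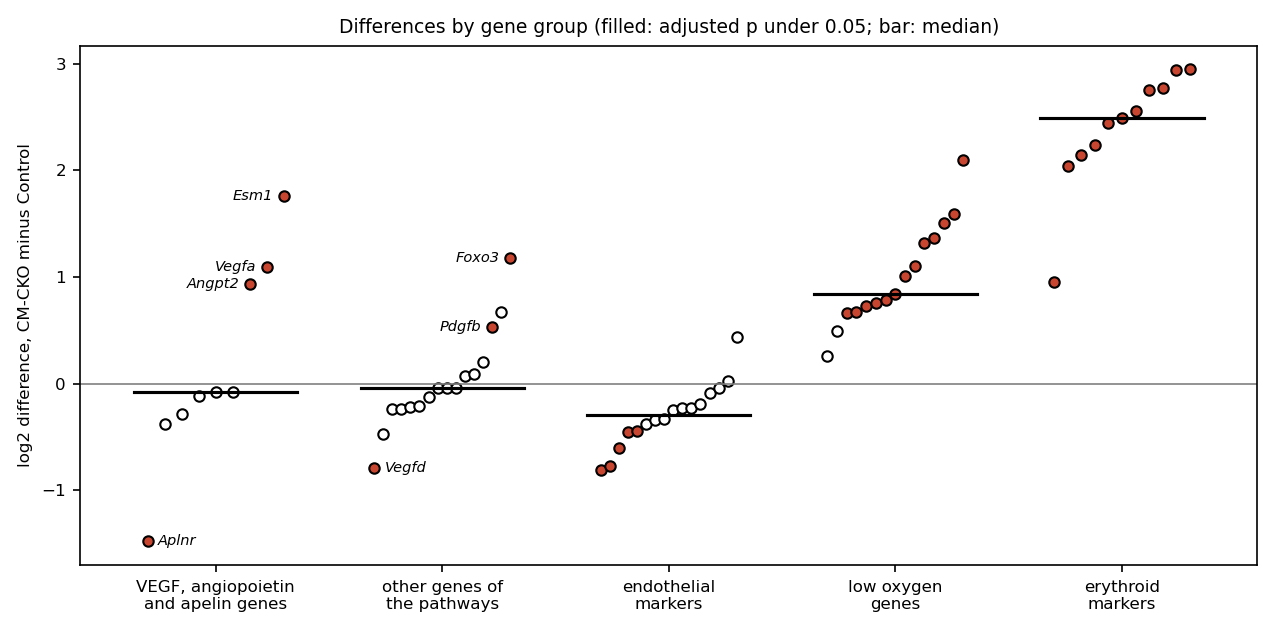
Log2 difference of CM-CKO from Control (y axis) for each kept gene of 5 groups (x axis); filled points passed at an adjusted p under 0.05 and bars are medians. The VEGF, angiopoietin and apelin genes spread from −1.48 to 1.76 around a median of −0.08, while the endothelial markers have a median of −0.29, the low-oxygen genes of 0.84 and the erythroid markers of 2.49.

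Within the CM-CKO group, several genes had their highest and lowest levels in the same samples. CM-CKO 3 had the highest level of Vegfa, Vegfc, Angpt2, Esm1, Flt1, Tek and Aplnr, and CM-CKO 4 the lowest of Vegfa, Vegfc, Angpt2, Esm1, Flt1, Kdr and Tek. Aplnr was lowest in CM-CKO 2 and Flt4 in CM-CKO 1, while Flt4 and Kdr were highest in CM-CKO 2. The mean log2 level of the erythroid markers ran the other way for Tek, at 9.04, 10.32, 8.21 and 10.88 in CM-CKO 1 to 4, where Tek read 8.01, 7.80, 8.11 and 7.59. With 4 samples this is a description. After subtraction of group means, Tek and Esm1 correlated at r = 0.83 over the 15 arrays, although across all arrays the value was −0.46. For Vegfa and Tek the values were 0.68 and −0.63. Angpt2 and Esm1 correlated both ways, at 0.68 within groups and 0.89 across all arrays. The arrays share slides and the CM-CKO samples stand apart, so these correlations describe the samples and carry no test.

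The genes most like each member in level over the 15 arrays were found by Pearson correlation, with the value after subtraction of group means beside it. For Vegfa they were Prelid2 (0.956, and 0.757 within groups), Bhlhe40 (0.952 and 0.73) and Upp1 (0.946 and 0.744). For Esm1 they were Eno1b (0.961 and 0.911), Arhgap29 (0.939 and 0.796) and Rnf14 (0.927 and 0.809). Angpt2 was nearest to Atp6v1a (0.893 and 0.422), Vcl (0.887 and 0.624) and Esm1 itself (0.887 and 0.675). Another member of the set was thus among the nearest genes only for Angpt2. The genes nearest to Aplnr were Slc9a3r2 (0.968 and 0.802), Gas6 (0.965 and 0.581) and Dpcd (0.965 and 0.649). Tek was nearest to Klhl6 (0.948 and 0.694), Pcca (0.932 and 0.682) and Amigo2 (0.927 and 0.746). The values within groups were lower than those across all arrays for all 5 of these genes. For the genes with no call the nearest were Col4a6 for Vegfc (0.901), Zdhhc8 for Flt1 (0.901), Ttll7 for Flt4 (0.909) and Atp8b3 for Kdr (0.827).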

How the data were processed

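RNA of 15 embryo head samples was measured on 1-colour Illumina bead arrays. The deposited signals were intensity values, not normalized or background-corrected, beside a detection p-value per probe, per the file headers; the authors' value table held log2 signals, and the software was not named in the sources used here. On each array 74.4% to 75.6% of the detection p-values stood in another row than their signal, and they were matched again by rank. In Het 1 that column repeated the value table (1 column, not used), and the average by rank of the others took its place. Signals were background-corrected (limma 3.58.1 in R 4.3.3, function nec with an offset of 16), then quantile-normalized and log2-transformed. Detection on at least 3 arrays left 21869 of 45281 probes and 11625 genes, each by its brightest probe. Of all probes, 34885 had 1 gene name, 18 several and 10378 none.

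All 4 groups were fitted in 1 limma model with genotype as the only factor. Adjusted p is Benjamini-Hochberg over all genes of a comparison, with a threshold of 0.05, and intervals are 95% intervals of the fit. Mean signal per array was 341.0 to 434.4, with 19204 to 19793 probes detected. The number of arrays limits the precision. The fit was also run on simulated data with independent noise and no slide effect, which does not test the confounding with slide. The members, gene lists and tests were chosen with earlier results of these data known. All 10 members are named, with the listed pathway genes that passed or are ligands or receptors, and the 3 genes most correlated with each member. Promoters came from RefSeq (GRCm38.p6), and figures were drawn with matplotlib 3.10.9. Alternatives covered background correction, scaling, the value table, the filter, the probe rule, slide, replicate number, the groups fitted, an erythroid covariate and each array left out.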

Additional observations from a re-analysis of the deposited data

Results flagged for a closer look

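Of the results on these genes, 2 were picked out because the effect of Mesp1-Cre differed between the 2 Twist1 backgrounds in a test of that difference. For Tek the interaction was −0.86 on the log2 scale (limma adjusted p = 0.017), and for Aplnr it was −1.49 (adjusted p = 0.00454). In both genes all 4 CM-CKO samples lay below every Het sample. No sample was flagged within its own group by Dixon's test in the 27 sets of 4 samples examined. Control, with 3 samples, was not among these sets. CM-CKO 4 still read 9.38 for Vegfa, beside 10.05, 10.19 and 10.19 in CM-CKO 1 to 3, and fell just short of the cut-off for a flag. For Esm1 it read 5.44, beside 6.99, 6.68 and 7.39. In sets of 4 samples, a lack of flags does not show that no sample differs from its group.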

How the results depend on the processing

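The directions of the called member differences held in all settings run except that of Esm1 against Het, which turned to −0.22 within slide 3 (a value with no test). Counts of all genes called against Control, Het and CM-Het were 841, 985 and 1152. Without background correction no member call was lost, but the differences of dim probes shrank (Angpt2 against Control 0.40 in place of 0.94, Esm1 0.72 in place of 1.76). Median scaling gave 434 against Control and 582 against Het. Fitting only the groups compared gave 272 and 333, with 3 members called against Control (Esm1 lost) and 2 against Het (Tek and Esm1 lost) in place of 4, and 2 genes in CM-Het against Control. The erythroid covariate gave 125, 36 and 78 genes, 2 members against Het and 3 against CM-Het, 2 genes in CM-Het against Control, and 7 genes and 0 members in the interaction in place of 124 and 2. That covariate nearly follows genotype. Without slide 1 the counts were 1458, 1861 and 1734, and 1269 in the interaction; a slide block gave 263 there. With slide 1 left out, CM-CKO 4 is the only sample of its group, so no spread within CM-CKO enters that fit. Those higher counts cannot be read as a stronger effect of genotype. In CM-Het against Control the mean of kept probes gave 2 genes and every probe tested alone gave 4.

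With each array left out in turn, the counts ran from 385 (without Control 2) to 1029 (without CM-CKO 3) against Control, from 504 (without CM-CKO 2) to 1272 (without Het 1) against Het, from 550 (without CM-CKO 2) to 1256 (without CM-CKO 3) against CM-Het, from 0 to 1 in Het against Control, and from 57 (without CM-Het 1) to 330 (without CM-CKO 3) in the interaction, where members called ran from 1 to 4. The Esm1 call against Het was lost without Het 2 or 3 or CM-CKO 1, 2 or 3, at 0.92 to 1.16 (adjusted p = 0.06 to 0.0804), and without a filter on dim probes (adjusted p = 0.0508). The Angpt2 difference from Het passed without CM-CKO 4 (0.47, adjusted p = 0.0279), as did the Esm1 interaction (1.36, adjusted p = 0.036), and that of Vegfa without Het 1 or CM-CKO 4. The cause of these shifts was not tested.

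Replicate numbers did not pair the samples: of 21 same-numbered pairs, 5 correlated above 0.1 (range −0.13 to 0.33). With a replicate block the counts were 755, 983, 1129 and 153, no member call was lost, and the Vegfa interaction passed (0.92, adjusted p = 0.0495). Low signal limits Kdr, Flt4 and the Control level of Esm1, and 4 samples or fewer per group limit every interval.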
